A study of Drosophila melanogaster with 16 samples.

Results

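Wing imaginal discs of 2 neoplastic Drosophila mutants were set against each other at the same age. The comparison takes 6 of 16 arrays: 3 of wing discs from lgl mutant larvae (alleles lgl27S3/lglE2S31) and 3 of wing discs from scrib mutant larvae (alleles scrib1/scrib2), all dissected at day 9 after egg deposition from larvae of the third instar on standard medium. The labels describe both mutant tissues as tumours. The other 10 arrays held brain complexes of the same mutants at day 9 (3 arrays each), and wing discs and brain complexes of wild-type larvae at day 5 (2 arrays each, labelled as free of tumours). Both mutant groups therefore share age and tissue, while the wild-type values given beside them differ in age as well as genotype. Each mutant is 1 combination of alleles, so the mutated gene and the rest of that stock's genome cannot be told apart. The labels say that samples were made in triplicate and name no separate animals or pools, so p-values measure the spread between these samples, which may be technical.

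Lgl (Lethal giant larvae) and Scrib (Scribbled) are cytoplasmic scaffold proteins that act with Discs large at the basolateral cortex of epithelial cells. Together these proteins form the Scribble module, which keeps apical determinants such as aPKC and Crumbs out of the lateral membrane. Loss of any of them makes wing discs lose their layered epithelium and overgrow during a prolonged larval stage, which is why they are known as neoplastic tumour suppressors. Because both work in the same module, the direct comparison asks where discs lacking one differ from discs lacking the other.

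All values are log2 signals with a floor of 2.21. A value of 4 was taken as the lower limit of a measured signal, and probe sets at or above 4 on at least 2 of the 16 arrays were tested. Between 40.1% and 41.9% of all probe sets reached 4 on the 6 mutant disc arrays. Of 28 wing selector and patterning genes on the array, eyg alone lay below 4 on every lgl disc array and none did on the scrib disc arrays. Reaching 4 does not tell disc from brain, because many of these genes did so in the mutant brains too. Examples were noc (means of 12.62 in lgl and 12.41 in scrib brains) and ap (9.52 and 9.59). The control probe sets for eIF-4A, whose 3′ minus 5′ difference grows as RNA breaks down or copying stops short, read 2.26, 2.14 and 2.26 log2 in lgl and 1.65, 1.71 and 2.0 in scrib discs. The same difference for GAPDH was 0.58 to 0.67 in lgl and 0.31 to 0.37 in scrib discs, and for actin it overlapped (0.73 to 0.98 against 0.75 to 1.07). The part of this difference in the results below was not tested.

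The mutated genes were read first. The probe set of l(2)gl read 5.47, 2.99 and 2.42 on the lgl disc arrays and 10.90, 10.72 and 10.70 on the scrib disc arrays. Every lgl array lay below every scrib array, and wild-type discs read 10.51 and 10.72. The difference was -7.15 ± 0.58 log2 (SE; adjusted p = 3.2e-06), at least 77.9-fold lower in lgl discs. The brighter scrib probe set read 10.41, 10.71 and 10.53 in lgl discs against 10.34, 10.10 and 9.89 in scrib discs. That difference of 0.44 ± 0.27 (adjusted p = 0.29) did not pass the test, so scrib RNA did not serve to tell the mutants apart, and no label states an effect of scrib1 or scrib2 on the transcript.

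Limma called 1805 of 8819 probe sets different between lgl and scrib discs at a Benjamini-Hochberg adjusted p below 0.05, which is 20.5%. Of these, 1052 (11.9%) were higher and 753 (8.54%) lower in lgl discs. A large share of the higher side came from genes that are bright in wild-type brain. The probe sets at least 2 log2 higher in wild-type brain than in wild-type disc, called the brain set here, numbered 998, of which 427 were called (42.8%), and 415 of them (41.6%) were called higher in lgl discs against 12 (1.2%) lower. Without the brain set, 1378 of 7821 probe sets were called (17.6%), with 637 higher (8.14%) and 741 lower (9.47%). That balance was 499 higher and 487 lower without scrib disc replicate 1, and 289 higher and 257 lower when a 2-fold difference was also required. By genes, each represented by its brightest probe set, 1488 of 7213 were called (20.6%). Outside the brain set these were 497 higher (7.77%) and 620 lower (9.7%) of 6394 genes, and within it 363 higher (44.3%) and 8 lower (0.977%) of 819. The count over all probe sets was 3064 when the wild-type arrays, the most variable ones, were left out of the fit, and 1050 without scrib disc replicate 3.

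**Figure D1:**
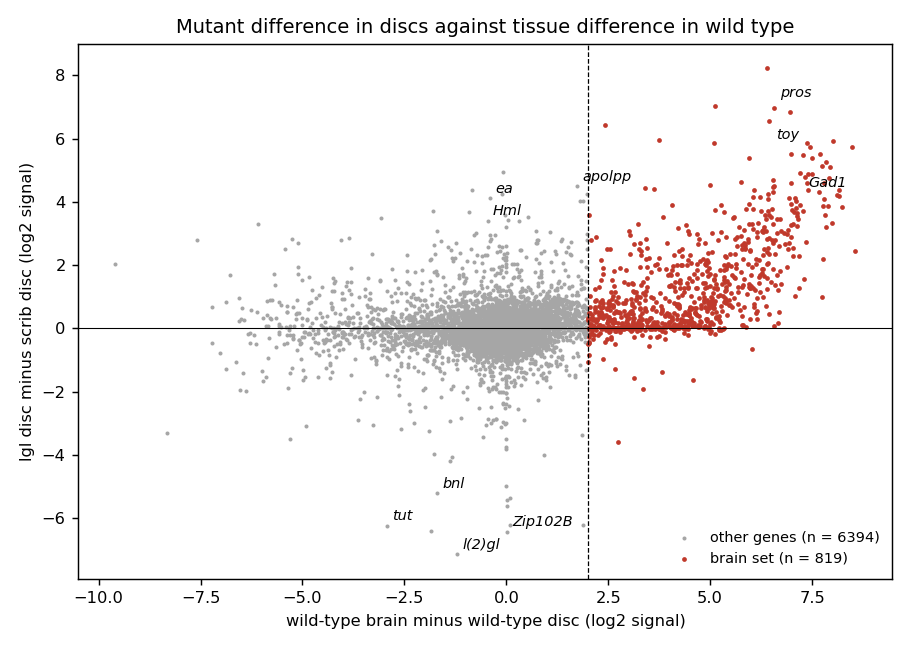
Each point is 1 gene. The x axis gives its difference between wild-type brain and wild-type disc and the y axis its difference between lgl and scrib discs, both in log2 signal. The dashed line marks 2 log2, right of which the 819 brain-set genes (red) lie mostly above 0, while the 6394 other genes (grey) spread to both sides.

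The differences within the brain set were also larger. Of its 415 probe sets called higher in lgl discs, 376 differed by at least 1 log2 and 230 by at least 2 log2, with a median of 2.17. Outside it, 289 of the 637 called higher reached 1 log2 and 110 reached 2 log2 (median 0.93). On the side higher in scrib discs, 257 of 741 reached 1 log2 and 77 reached 2 log2 (median -0.79). Differences of 4 log2 or more outside the brain set numbered 9 on the lgl side and 16 on the scrib side.

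The brain set separated the mutants on every array. The share of its probe sets at or above 4 was 53.6%, 59.7% and 52.0% on the lgl disc arrays against 26.4%, 26.2% and 28.3% on the scrib disc arrays. The wild-type arrays defined the set, so their own values for it are fixed by the rule. The median level of the set was 4.26, 4.81 and 4.11 in lgl and 2.74, 2.76 and 2.93 in scrib discs. The converse set of 715 probe sets at least 2 log2 higher in wild-type disc than brain did not separate them: its median level was 8.31, 8.19 and 8.41 in lgl and 8.33, 8.19 and 8.30 in scrib discs, with 45 called higher (6.29%) and 53 lower (7.41%), 13.7% in all. In bulk tissue, more cells of a type and more RNA per cell cannot be told apart.

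All tested neuron markers lay in the brain set. Of 18 tested neuron markers (19 on the array) 11 were higher in lgl discs and none lower, with a median difference of 1.39 log2. Over the whole brain set 44.3% of genes were called higher, and the median difference of its probe sets was 0.69. The synaptic vesicle protein gene Syn read 6.47, 7.44 and 6.82 in lgl and 2.80, 2.40 and 2.37 in scrib discs (4.39 ± 0.23, at least 7.53-fold, adjusted p = 1.1e-07). Gad1, which makes the transmitter GABA, read 7.21, 8.03 and 7.58 against 2.25, 2.43 and 2.33. The release regulator cpx read 7.32, 8.29 and 7.56 against 2.21, 2.21 and 2.58, and fne, an RNA-binding protein of the ELAV family, 6.12, 7.08 and 6.08 against 2.51, 2.60 and 2.60. All 3 scrib arrays lay below 4 for each of these genes and all 3 lgl arrays above 6, so each fold is a lower bound, at least 12.2-fold for Gad1, 13.2-fold for cpx and 5.38-fold for fne. A second, dimmer cpx probe set did not pass the test (0.33, adjusted p = 0.44). Of the 19 markers 14 lay below 4 on every scrib disc array, against 3 on every lgl disc array (brp, para and VGlut). The 2 wild-type discs differed from each other here, with cpx at 6.59 and 2.21 and fne at 5.94 and 2.21.

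Genes of neural precursors and glia moved the same way. Of 16 tested neuroblast and precursor markers (17 on the array) 7 were higher and none lower in lgl discs, with a median of 1.16. Over all genes 11.9% were called higher and 8.71% lower. The homeodomain factor pros, which enters the nucleus of differentiating daughters of neuroblasts, read 8.54, 10.19 and 9.28 in lgl discs and 2.28, 2.21 and 2.63 in scrib discs (6.97 ± 0.50, at least 40.4-fold, adjusted p = 1.2e-06). The temporal identity factor cas read 6.84, 8.26 and 5.00 against 2.26, 2.47 and 2.25 (at least 6.51-fold). For nerfin-1, a zinc finger factor of new neurons, the values were 8.72, 9.37 and 6.34 against 2.55, 2.55 and 4.05, and for the adaptor mira 8.57, 9.67 and 6.26 against 3.71, 3.72 and 6.03. Levels of cas, nerfin-1 and mira were lowest in lgl disc replicate 3, and mira there lay only just above the highest scrib array. The 7 tested precursor markers outside the brain set had 1 called higher and a median of 0.22.

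Of 16 tested glial markers, 8 were higher and none lower, with a median of 1.0, beside 11.9% and 8.71% of all genes. The glial homeodomain factor repo read 7.18, 8.46 and 7.58 in lgl and 4.39, 4.82 and 4.49 in scrib discs (3.17 ± 0.33, 9.01-fold, adjusted p = 2.8e-05). Gs2, a glutamine synthetase, read 7.39, 8.18 and 7.45 against 4.28, 2.72 and 2.70, the exchanger zyd 6.09, 7.02 and 5.95 against 3.68, 2.98 and 3.17 (at least 5.11-fold), and the astrocyte gene alrm 5.67, 8.27 and 7.36 against 2.36, 3.13 and 3.14 (at least 8.56-fold). None of these groups overlapped. Wild-type discs were at or above the lgl level for Gs2 (9.40 and 8.23). All 8 called glial genes were in the brain set, and none of the 7 tested glial markers outside it was called (median 0.12).

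Retinal determination genes split. The Pax6 gene toy read 8.68, 9.28 and 8.61 in lgl and 2.21, 2.41 and 2.30 in scrib discs (6.55 ± 0.36, at least 29.0-fold, adjusted p = 1.5e-07), with wild-type discs at 4.09 and 2.41. The other Pax6 gene, ey, was low throughout, at 4.89, 5.10 and 3.42 in lgl discs and between 2.43 and 2.56 in scrib discs (2.0 ± 0.32, at least 1.39-fold, adjusted p = 0.00091). The Pax gene eyg ran the other way. It read 2.25, 2.48 and 2.21 in lgl discs and 5.71, 4.70 and 5.69 in scrib discs (-3.05 ± 0.57, at least 2.58-fold lower in lgl, adjusted p = 0.0025). In all, 5 of 10 tested eye genes (13 on the array) were higher and 1 lower, beside 11.9% and 8.71% of all genes. Outside the brain set these were 1 higher and 1 lower of 6, with a median of 0.08. The eye list shares lz, called higher, with the hemocyte list and eyg, called lower, with the wing selector list. The genes so (-0.04) and eya (0.33), which act with the Pax6 genes, did not pass the test, and ato, gl, ro and sv lay below 4 on every array of both mutants.

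Further brain-set genes with the largest differences code for carriers and enzymes. The odorant-binding protein gene Obp44a read 14.01, 14.34 and 13.89 in lgl discs and 3.82, 4.20 and 9.56 in scrib discs (8.22 ± 1.72, at least 286-fold, adjusted p = 0.0048). Scrib replicate 3 and the wild-type discs (13.29 and 4.98) show how widely this gene varied within a group. The elongation factor eEF1alpha2 read 11.77, 12.01 and 11.33 against 4.46, 2.93 and 6.68 (7.02 ± 0.65, at least 101-fold, adjusted p = 1.1e-05), and Obp99a read 10.24, 11.55 and 11.13 against 4.59, 4.52 and 5.98 (5.94 ± 0.49, 61.5-fold, adjusted p = 4e-06). The 4 brain-set genes that met the naming rule on the other side were lower in lgl discs. Sirup, an assembly factor of respiratory complex II, read 10.72, 10.31 and 10.53 against 14.38, 13.65 and 14.34 (-3.60 ± 0.30, 12.1-fold lower in lgl, adjusted p = 4.5e-06). Malic enzyme (Men) followed at -1.30 ± 0.21 (adjusted p = 0.001). The metallothionein MtnA (-1.64 ± 0.54, adjusted p = 0.049) lost its call in 9 of 16 alternatives and the acetyl-CoA synthase AcCoAS (-0.49 ± 0.14, adjusted p = 0.024) in 5, among them the omission of single arrays.

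Outside the brain set, genes of hemocytes, the insect blood cells, were the list with the largest share called. Of 15 tested hemocyte markers (18 on the array) 12 were higher in lgl discs, 11 of them outside the brain set, and none lower, with a median of 2.34 log2. Over all genes 11.9% were called higher and 8.71% lower, and outside the brain set 7.77% were called higher. Hml, the clotting protein hemolectin, read 8.88, 7.92 and 8.29 in lgl and 5.54, 5.14 and 4.22 in scrib discs (3.40 ± 0.58, 10.6-fold, adjusted p = 0.0013), with wild-type discs at 5.85 and 5.98. The phagocytosis receptor NimC1 read 7.94, 6.34 and 7.70 against 4.24, 4.19 and 4.66 (2.96 ± 0.48, 7.80-fold, adjusted p = 0.00093), with wild-type discs lower still at 3.98 and 3.47. Every lgl array lay above every scrib and wild-type array for both genes. The 12 also included the prophenoloxidase genes PPO1 and PPO2 of crystal cells (2.34 and 2.78) and their lineage factor lz (1.62). The PPO1 call was lost without any one of 4 of the 6 arrays (lgl replicate 1 or 2, scrib replicate 2 or 3), at adjusted p of up to 0.093. The markers crq (0.28), ush (0.32) and srp (1.63, adjusted p = 0.087, and 0.009 without lgl replicate 2) did not pass the test, and NimC2, NimC4 and PPO3 lay below 4 on every array of both mutants. The summed signal of all 18 markers was 12.05 to 12.53 log2 in lgl, 10.29 to 10.71 in scrib and 11.05 to 11.35 in wild-type discs.

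**Figure D2:**
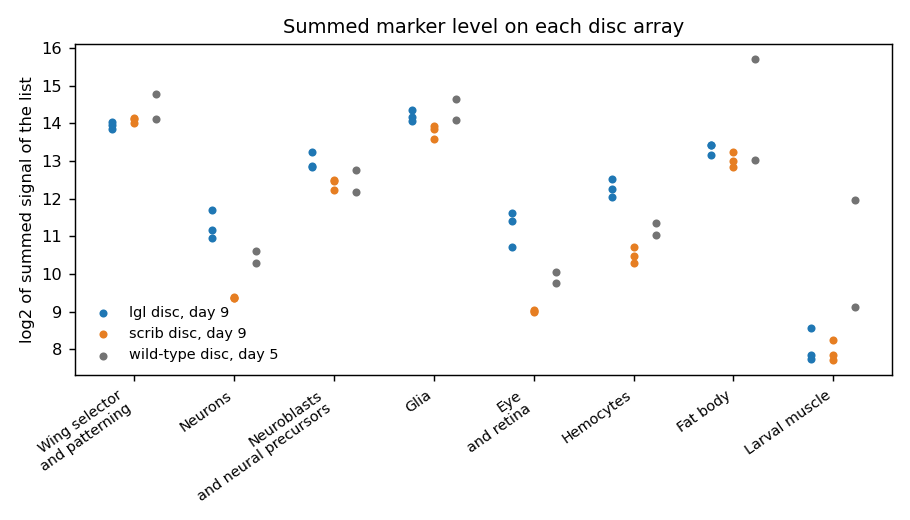
Each point is 1 array and gives the log2 of the summed linear signal of all genes of a marker list, for lgl (blue), scrib (orange) and wild-type (grey) discs. Neuron, neuroblast, glia, eye and hemocyte lists separate the mutants without overlap (neurons 10.96 to 11.70 against 9.36 to 9.39). For glia the wild-type discs (14.09 and 14.65) lie among or above the lgl arrays (14.07 to 14.36). The wing selector list differs little between the mutants (13.85 to 14.03 against 14.00 to 14.15).

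Basement membrane genes, several of which hemocytes also express, were higher in lgl discs as well. Of 18 tested genes of the basement membrane, its receptors and metalloproteases (21 on the array), 9 were higher and 1 was lower, with a median of 0.70. All 18 lay outside the brain set, where 7.77% of genes were called higher and 9.7% lower. The collagen IV genes Col4a1 and vkg read 9.63, 9.16 and 9.58 and 9.98, 9.60 and 10.02 in lgl discs, against 7.5, 7.26 and 7.10 and 7.95, 7.78 and 7.23 in scrib discs. These were differences of 2.17 ± 0.34 (4.50-fold, adjusted p = 0.00072) and 2.21 ± 0.37 (4.63-fold, adjusted p = 0.0012). The perlecan gene trol read 8.24, 8.63 and 9.06 against 6.23, 6.6 and 5.92 (2.40 ± 0.27, adjusted p = 5.6e-05). Of its 3 other probe sets 1 was called higher too, and the remaining ones did not pass the test (0.08 and 0.48). The metalloprotease gene Mmp2 read 5.85, 4.98 and 6.53 against 2.94, 2.73 and 3.21 (at least 3.45-fold), and Reck, an inhibitor of metalloproteases, 8.83, 8.57 and 8.81 against 7.25, 7.27 and 7.34 (2.73-fold). Col4a1, vkg and Pxn are in the hemocyte list too, and their cell of origin was not tested. Fat body, which also makes collagen IV, had 2 of 9 tested markers called higher, beside 11.9% of all genes. Its summed signal was 13.16 to 13.44 in lgl and 12.85 to 13.24 in scrib discs. The laminin and integrin genes were mixed, with LanB2 (1.08) and mys (0.84) called and LanA (0.36), LanB1 (0.44) and mew (0.03) not, and PH4alphaEFB, which hydroxylates collagen, was lower in lgl discs (-0.78, adjusted p = 0.019), a call lost without lgl replicate 2 (0.051) or 3 (0.066) or scrib replicate 3 (0.094).

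Several transcription factor genes were among those higher in lgl discs, placed together here after their values were seen. The zinc finger gene disco read 5.31, 6.87 and 7.83 in lgl and 2.52, 2.52 and 2.92 in scrib discs (4.02 ± 0.52, at least 6.36-fold, adjusted p = 0.00017). The Sp-family gene btd read 5.75, 6.34 and 7.16 against 2.63, 4.10 and 3.31 (3.07 ± 0.52, at least 5.22-fold, adjusted p = 0.0012). The forkhead gene fd96Cb read 5.56, 7.47 and 7.97 against 2.49, 2.37 and 3.03 (4.37 ± 0.51, at least 8.0-fold, adjusted p = 6.3e-05). In each of these genes lgl replicate 1 was the lowest of the 3 lgl arrays and still lay above every scrib array. The same array was lowest for dac, which marks intermediate leg segments (8.45, 10.16 and 10.96 against 2.60, 3.58 and 4.10, at least 56.6-fold), and for TfAP-2 (7.61, 8.81 and 9.40 against 2.55, 2.57 and 3.13, at least 24.4-fold), both of them in the brain set. It was lowest too for the Hox gene Scr, which specifies labial and first thoracic identity, at 3.19, 4.52 and 6.23 against 2.32, 2.24 and 2.34 (2.35 ± 0.55, at least 1.56-fold, adjusted p = 0.01). The Scr call was lost in a fit on the 6 arrays compared (adjusted p = 0.063). Wild-type discs read 7.42 and 7.71 for dac, 4.02 and 5.74 for disco and 2.33 and 2.44 for Scr. The appendage gene Dll, which also codes for a transcription factor, read 6.80, 7.62 and 7.96 in lgl and 6.72, 6.43 and 6.50 in scrib discs and did not pass the test (0.91, adjusted p = 0.11, and 0.049 without lgl replicate 1).

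**Figure D3:**
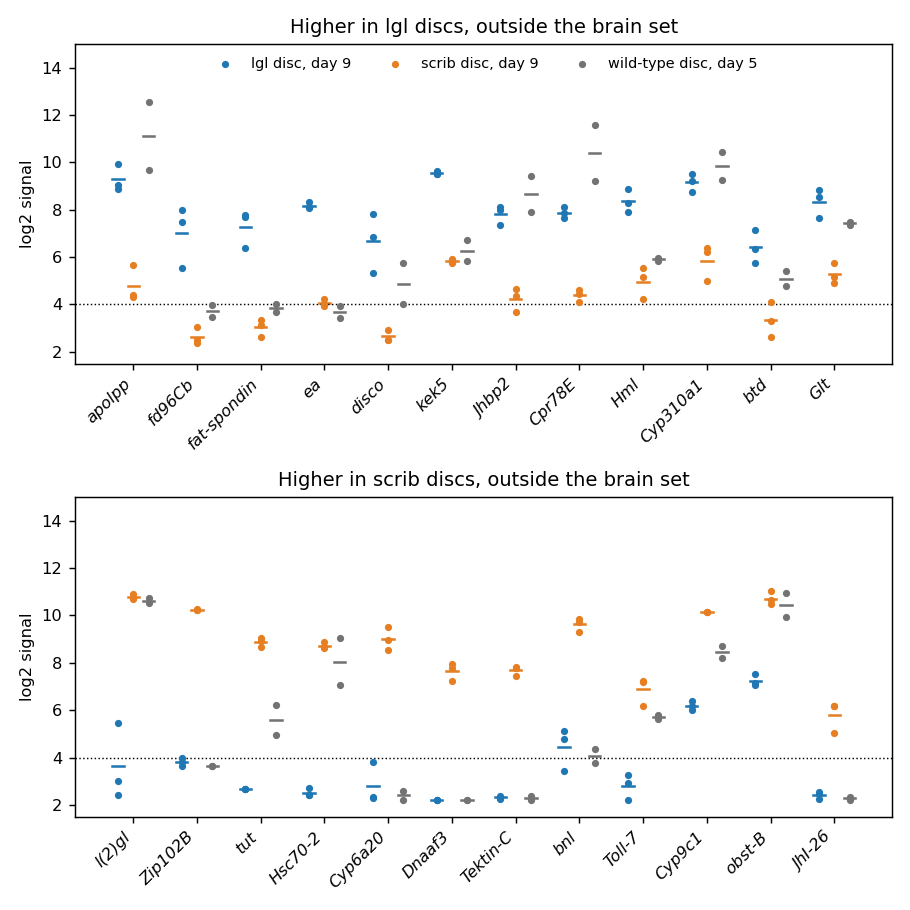
The log2 signal of the 12 genes with the largest differences each way outside the brain set, on each lgl (blue), scrib (orange) and wild-type (grey) disc array, with a bar at each group mean and a dotted line at 4. The genes were picked for lgl and scrib arrays that do not overlap. Wild-type discs lie near lgl for some genes (apolpp) and near scrib for others (Hsc70-2).

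The remaining genes with the largest excess in lgl discs code mainly for secreted and membrane proteins. The serine protease ea (Easter), which cleaves the Toll ligand in the embryo, read 8.11, 8.34 and 8.08 in lgl and 3.93, 4.25 and 4.02 in scrib discs (4.11 ± 0.14, at least 17.0-fold, adjusted p = 1.6e-09). Wild-type discs were at the scrib level (3.44 and 3.92). The transmembrane protein gene kek5 read 9.50, 9.52 and 9.63 against 5.93, 5.79 and 5.76 (3.72 ± 0.28, 13.2-fold, adjusted p = 1.6e-06), again with wild-type discs nearer scrib (5.82 and 6.71). The extracellular fat-spondin gene read 7.71, 6.38 and 7.77 against 3.13, 2.61 and 3.35 (4.26 ± 0.44, at least 9.76-fold, adjusted p = 2.6e-05). For the lipoprotein gene apolpp the order was different, with 9.03, 9.93 and 8.89 in lgl discs, 4.39, 4.33 and 5.67 in scrib discs, and the highest mean in wild type (12.54 and 9.66). Its difference was 4.49 ± 0.61 (22.4-fold, adjusted p = 0.00025). The same order held for the cuticle protein gene Cpr78E (3.50 ± 0.57, 11.3-fold) and, by group means, for Jhbp2 (3.58 ± 0.69, at least 11.1-fold), named for binding juvenile hormone, and the cytochrome P450 gene Cyp310a1 (3.31 ± 0.39, 9.94-fold). Glt, the basement membrane glycoprotein glutactin, completed the group at 3.07 ± 0.45 (8.37-fold, adjusted p = 0.00043).

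Branchless (bnl), the fibroblast growth factor that guides tracheal branches, was the signalling gene with the largest excess in scrib discs among those named. It read 5.11, 3.41 and 4.77 in lgl and 9.73, 9.32 and 9.85 in scrib discs (-5.20 ± 0.35, at least 32.1-fold lower in lgl, adjusted p = 6.1e-07). Wild-type discs were near the lgl level, at 3.78 and 4.36. Its other 2 probe sets gave the same direction (-3.47 and -3.17). None of the other 6 tested genes of FGF and PVF signalling was called, and limma called 0 of 9 tested tracheal markers (2 had an unadjusted p below 0.05), although their summed signal was higher in lgl discs (14.73 to 14.83 against 14.30 to 14.44). The receptor gene of bnl, btl, lay below 4 on every scrib disc array.

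Several other genes were near the floor in lgl discs and bright in scrib discs. The zinc transporter gene Zip102B read 3.99, 3.66 and 3.83 in lgl, 10.27, 10.25 and 10.23 in scrib and 3.66 on both wild-type disc arrays (-6.42 ± 0.14, at least 76.1-fold lower in lgl, adjusted p = 1.1e-11). The axonemal genes Dnaaf3, which assembles dynein arms, and Tektin-C, of ciliary microtubules, showed the same order. Dnaaf3 read 2.21 on every lgl and wild-type disc array and 7.95, 7.22 and 7.76 in scrib discs (at least 12.5-fold), and Tektin-C 2.39, 2.26 and 2.31 in lgl and 7.78, 7.83 and 7.46 in scrib discs (at least 12.9-fold). The P450 gene Cyp6a20 read 3.80, 2.32 and 2.27 against 8.97, 8.55 and 9.50 (at least 32.1-fold), with wild-type discs at 2.21 and 2.59, and JhI-26, inducible by juvenile hormone, 2.53, 2.48 and 2.24 against 6.18, 5.04 and 6.18 (at least 3.48-fold). In these 5 genes wild-type discs were on the lgl side. For testis, where tut and axonemal genes are used, all 13 markers lay below 4 on every disc array.

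In other genes wild-type discs were on the scrib side or between. The Hsp70-type chaperone gene Hsc70-2 read 2.40, 2.42 and 2.71 in lgl, 8.67, 8.87 and 8.63 in scrib and 7.07 and 9.03 in wild-type discs (-6.21 ± 0.50, at least 26.4-fold lower in lgl, adjusted p = 3.2e-06). The receptor gene Toll-7 read 2.21, 2.92 and 3.26 against 7.25, 7.18 and 6.19 (at least 7.33-fold), with wild type at 5.64 and 5.79. The chitin-binding protein gene obst-B read 7.13, 7.06 and 7.51 against 10.48, 10.64 and 11.02 (11.2-fold), with wild type at 10.93 and 9.92. Between the mutants lay wild-type values of tut, an RNA-binding protein gene of the male germ line (2.65 on every lgl array, 8.93, 8.67 and 9.05 in scrib, 4.96 and 6.2 in wild-type discs, at least 29.5-fold), and of the P450 gene Cyp9c1 (6.39, 6.00 and 6.18 against 10.14, 10.16 and 10.14, with wild type at 8.70 and 8.20, 15.5-fold).

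A count of genes below 4 on all 3 arrays of one mutant and at or above 6 on all 3 of the other gave an uneven picture. Outside the brain set, 10 genes were low in lgl and bright in scrib discs, and 2 (fat-spondin and CG32444) were low in scrib and bright in lgl discs. Of the 10, 5 (Hsc70-2, Tektin-C, Toll-7, Zip102B and CR44101) had the same pattern between the brains of these mutants. Cyp6a20, Dnaaf3, tut, CG6830 and CG33099 had it in discs without meeting it in brains. Dnaaf3 came close there, at 6.32, 5.81 and 6.75 in scrib brains and 2.21 on every lgl brain array. Limma called it (-4.085, adjusted p = 1.3e-07) and tut (-1.50, adjusted p = 0.03) lower in lgl brains as well. Within the brain set the numbers were 0 low in lgl and 49 low in scrib discs, and none of the 49 had the pattern in brains. That last count was largely fixed by the choice of the set for its wild-type brain signal. On the scrib brain arrays 85.6% to 88% of the set's probe sets reached 4. All genes counted here were picked by their values, so the counts describe and do not test.

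Glycolysis genes called between the mutants were lower in lgl discs. Of 12 tested glycolysis and sugar transport genes (13 on the array), 7 were lower and none higher, with a median of -0.73, beside 8.71% of all genes called lower. The rate-limiting phosphofructokinase Pfk read 10.14, 9.98 and 10.02 in lgl and 11.73, 11.11 and 11.99 in scrib discs (-1.56 ± 0.23, 2.96-fold lower in lgl, adjusted p = 0.00044), with wild-type discs at 9.95 and 10.57. Trehalase (Treh) read 8.70, 8.94 and 8.69 against 10.25, 9.48 and 10.18 (2.29-fold lower), enolase (Eno) 12.56, 12.46 and 12.54 against 13.30, 13.08 and 13.54 (1.73-fold lower) and triosephosphate isomerase (Tpi) 12.36, 12.30 and 12.29 against 13.03, 12.81 and 13.28 (1.65-fold lower). The groups did not overlap in any of these, and the wild-type mean lay nearer lgl for Pfk, Treh and Eno. The call of Tpi was lost without scrib replicate 3 (adjusted p = 0.053), and the number of glycolysis genes called lower was 3 without that array and 10 with the mutant arrays alone in the fit.

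Called genes of mitochondrial translation and DNA replication were lower in lgl discs too. All 69 mitochondrial ribosomal protein genes on the array were tested, and 10 were lower and none higher in lgl discs (median -0.42). Examples were mRpL45 (9.00, 9.06 and 9.15 against 10.05, 9.93 and 9.95, -0.91 ± 0.16, adjusted p = 0.0014) and mRpL48 (8.90, 8.89 and 8.84 against 9.59, 9.55 and 9.90, -0.81 ± 0.16, adjusted p = 0.003). Of 26 DNA replication genes 5 were lower and none higher (median -0.42), led by the origin recognition gene Orc4 (-0.83 ± 0.17, adjusted p = 0.0045) and the polymerase subunit gene PolA2 (-0.74 ± 0.15, adjusted p = 0.0045). The shares called lower, 10 of 69 and 5 of 26, compare with 8.71% of all genes. Leaving out single arrays lowered both counts: to 6 and 3 without lgl replicate 1, to 4 and 3 without lgl replicate 2 or 3, to 5 and 3 without scrib replicate 1, to 9 and 4 without scrib replicate 2 and to 3 and 2 without scrib replicate 3. With the mutant arrays alone in the fit they were 34 and 18. Cytosolic ribosomal protein genes (0 higher and 2 lower of 34), the respiratory chain (1 and 3 of 52) and proteasome subunits (2 and 0 of 27) had shares below those over all genes in each direction.

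Stress and immune lists had calls in both directions. There were 1 higher and 2 lower of 9 tested genes of Xrp1 and bZIP stress, 1 and 4 of 15 of oxidative stress, 2 and 2 of 12 small heat shock proteins and chaperones, 1 and 2 of 9 antimicrobial peptides and 3 and 1 of 12 cell death genes. Over all genes 20.6% were called, 11.9% higher and 8.71% lower. Irbp18, the bZIP partner of Xrp1, was higher in scrib discs, with 9.88, 9.62 and 9.79 in lgl and 11.21, 10.86 and 11.71 in scrib discs (-1.50 ± 0.23, 2.82-fold lower in lgl, adjusted p = 0.00064). The eIF2 kinase gene Gcn2 was higher in lgl discs (9.51, 9.57 and 9.42 against 8.64, 8.36 and 7.90, 1.20 ± 0.21, 2.30-fold, adjusted p = 0.0015). The antibacterial peptide gene CecB lay below 4 on every lgl array and read 5.11, 5.18 and 5.07 in scrib discs (-2.37 ± 0.16, at least 2.17-fold lower in lgl, adjusted p = 7e-07). The antifungal peptide gene Drs (4.73, 3.36 and 5.15 against 8.39, 7.14 and 6.50, adjusted p = 0.049) lost its call in 10 alternatives. The caspase gene Strica was higher in lgl discs (7.89, 7.82 and 8.0 against 4.89, 5.19 and 4.75, 2.96 ± 0.28, 7.78-fold, adjusted p = 1.1e-05). ImpL2, the secreted insulin antagonist that wasting tumours release, read 12.67, 11.17 and 12.28 in lgl and 13.97, 13.20 and 13.77 in scrib discs (-1.61 ± 0.41, adjusted p = 0.016). Without lgl replicate 2 its adjusted p was 0.068, and without scrib replicate 1 or 3 it was 0.059. Both mutants lay above wild-type discs for ImpL2 (8.79 and 10.42).

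Of 28 tested wing selector and patterning genes 1 was higher in lgl discs (dac) and 3 were lower (salr, ap and eyg), with a median of -0.15, beside 11.9% and 8.71% of all genes. The dorsal selector ap read 10.47, 10.41 and 9.43 in lgl and 11.60, 11.67 and 11.23 in scrib discs (-1.40 ± 0.25, 2.63-fold lower in lgl, adjusted p = 0.002), and a second probe set gave -1.38. The spalt gene salr read 6.73, 6.34 and 6.27 against 7.77, 7.99 and 7.67 (-1.36 ± 0.22, 2.57-fold lower in lgl, adjusted p = 0.00095). Wild-type discs were on the scrib side for both (11.25 and 11.63 for ap, 7.79 and 8.40 for salr). The wing selector vg (-0.50, 95% interval -1.16 to 0.17) and nub (-0.32, -0.88 to 0.24) did not pass the test. Limma called 0 of 17 tested Hedgehog, Wingless and Dpp genes, and 0 of them had an unadjusted p below 0.05.

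Pathways known for their response to loss of polarity were read next. Of 20 tested JNK and Eiger genes 2 were higher in lgl discs and none lower, beside 11.9% and 8.71% of all genes. One was egr, the TNF ligand, itself in the brain set (7.44, 6.31 and 6.65 against 4.20, 5.59 and 4.59, 2.01 ± 0.33, 4.01-fold, adjusted p = 0.001), and the other, the kinase gene bsk, lost its call without any one of 5 of the 6 arrays. Of 9 JAK/STAT genes limma called 0 (2 had an unadjusted p below 0.05), and of 16 Hippo and Fat-Dachsous genes it called 1. Singled out after their values were seen, the relaxin-like hormone gene Ilp8 read 12.30, 11.88 and 12.62 in lgl and 11.95, 11.91 and 12.23 in scrib discs (0.24, 95% interval -1.22 to 1.69). The filamin gene cher read 12.04, 11.89 and 11.95 against 11.97, 11.89 and 12.09 (-0.03, -0.54 to 0.49), and the JAK/STAT ligand gene upd1 8.94, 8.46 and 9.09 against 8.98, 8.83 and 8.93 (-0.08, -1.25 to 1.08). The arrays of both mutants overlapped for these 3 genes, all above the wild-type discs, although the intervals for Ilp8 and upd1 allow differences of over 1 log2. The JNK phosphatase gene puc was nearer to a call, with its lgl arrays at 10.65, 10.13 and 10.60 all above its scrib arrays (0.65, 0.15 to 1.14, adjusted p = 0.065, and 0.049 without lgl replicate 2). With the mutant arrays alone in the fit the JNK list had 6 higher and 1 lower.

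**Figure D4:**
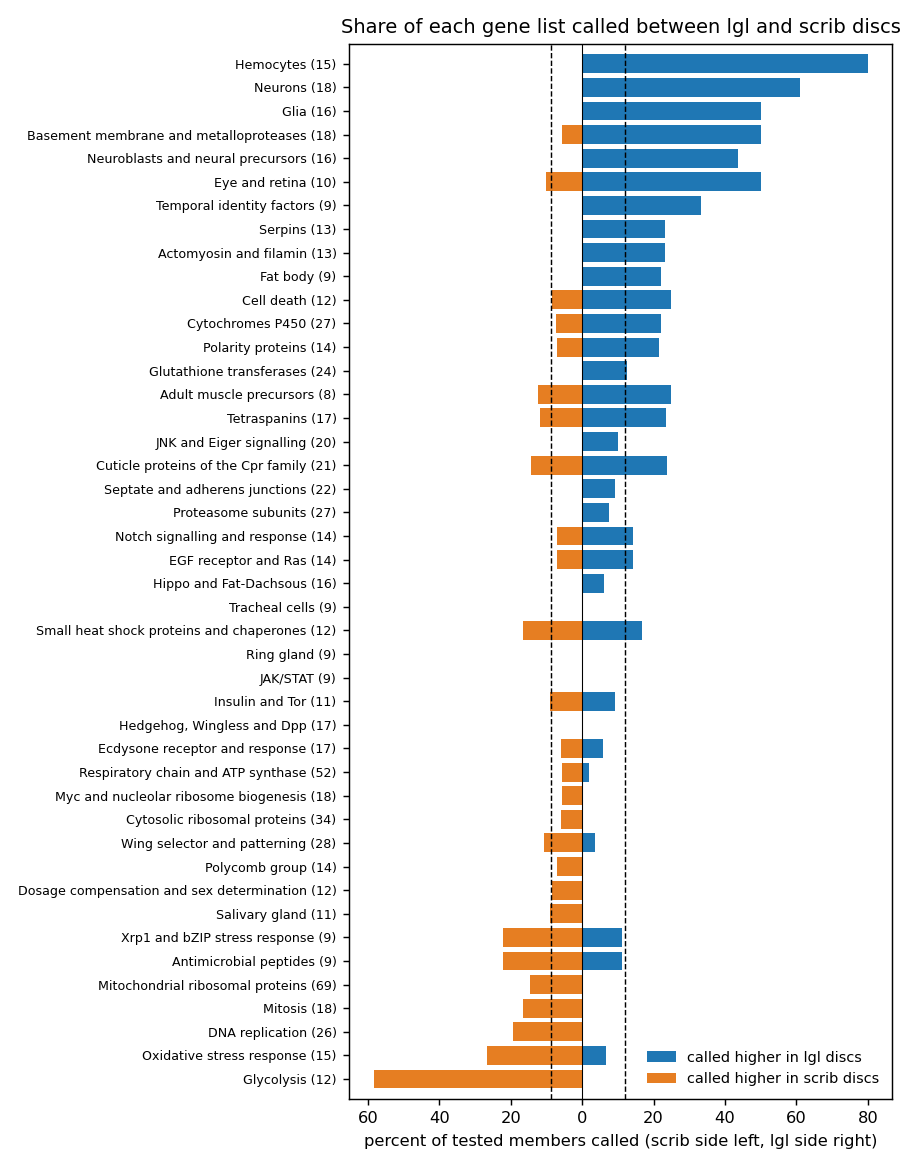
Share of the tested members (number in brackets) of each gene list called higher in lgl discs (blue, right) or in scrib discs (orange, left), for lists with at least 8 tested genes, with dashed lines at the shares over all 7213 genes. Hemocytes (12 of 15) stand at the lgl end and glycolysis (7 of 12) at the scrib end, and many signalling lists lie within the dashed lines.

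Of 14 tested polarity genes 3 were called higher in lgl discs and 1, the mutated gene l(2)gl itself, lower, beside 11.9% and 8.71% of all genes. The largest of those higher was the kinase gene par-1 (9.90, 10.02 and 9.91 against 9.08, 9.08 and 8.76, 0.97 ± 0.20, 1.96-fold, adjusted p = 0.0041). Of the 3 other par-1 probe sets 1 was called higher and 2 were not. The calls of sdt and Moe, also higher, were lost in 7 and 6 of 16 alternatives. The third member of the module, dlg1 (0.93, adjusted p = 0.11, and 0.048 without scrib replicate 2), and aPKC (0.37), baz (-0.08) and crb (0.20) did not pass the test. Of 22 septate and adherens junction genes 2 were higher in lgl discs, neither of them by 1 log2. The number called was 0 without lgl replicate 3 or without scrib replicate 3.

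Cuticle protein and P450 genes were called in both directions. Of 21 tested cuticle protein genes of the Cpr family (80 on the array) 5 were higher and 3 lower in lgl discs, and of 27 cytochrome P450 genes (83 on the array) 6 were higher and 2 lower. Cyp6g2 read 5.77, 6.14 and 5.58 in lgl and 3.21, 2.95 and 2.98 in scrib discs (2.78 ± 0.29, at least 3.55-fold, adjusted p = 2.8e-05). Cyp4g15, of the brain set, read 6.27, 6.83 and 6.56 against 3.01, 3.04 and 3.02 (3.53 ± 0.24, at least 5.88-fold, adjusted p = 7e-07), whereas Cyp6a20 and Cyp9c1 were those lower in lgl discs. Of 13 tested serpins 3 were higher and none lower, and of 24 glutathione transferase genes likewise 3 and none, beside 11.9% and 8.71% of all genes.

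Brain complexes of the same mutants, which are separate arrays, gave a second reading of each genotype difference. There limma called 1014 probe sets (11.5%) and 791 of 7213 genes (11%), 381 higher (5.28%) and 410 lower (5.68%) in lgl brains. Of the 497 genes higher in lgl discs outside the brain set, 132 were also called higher in lgl brains, which is 26.6% of the disc calls and 53.2% of the brain calls, against 3.88% of all such genes called higher in brains. Of the 620 lower in lgl discs, 180 were called lower in brains too (29% and 50.1%, against 5.61%). For the brain set, 55 of the 363 genes higher in lgl discs were called higher in brains (15.2%), close to the 16.2% of the whole set.

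Some differences had the same size in both tissues. Zip102B read 3.66, 3.49 and 3.71 in lgl and 10.24, 9.93 and 10.29 in scrib brains (-6.53 ± 0.14, against -6.42 in discs). Hsc70-2 differed by -6.75 in brains and -6.21 in discs, Tektin-C by -5.73 and -5.37, and l(2)gl by -6.95 and -7.15. On the lgl side kek5 read 9.75, 9.61 and 9.53 in lgl and 5.81, 5.64 and 6.34 in scrib brains (3.70 ± 0.28, against 3.72 in discs), Strica differed by 2.86 and 2.96, and Cyp6g2 by 2.78 in both. These genes separated the mutants by genotype in both tissues.

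**Figure D5:**
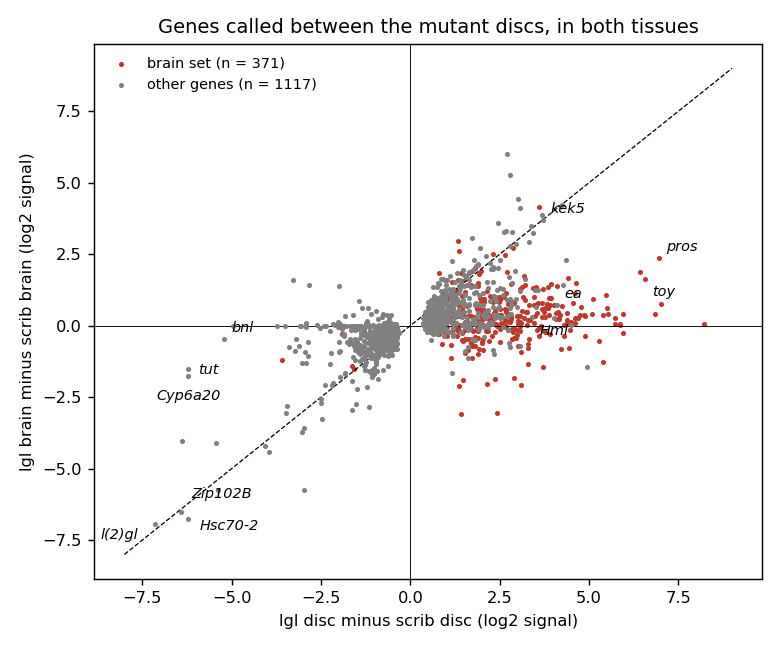
Each point is a gene called between lgl and scrib discs. The x axis gives its difference in discs and the y axis its difference in brains, in log2 signal, for 371 brain-set genes (red) and 1117 others (grey), with a dashed line where both are equal. Zip102B, l(2)gl and kek5 lie on that line, while bnl, Hml and many brain-set genes lie near 0 on the y axis.

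Others differed between the tissues by the test of the difference itself, which called 426 probe sets (4.83%) and 350 genes (4.85%). Of these genes 261 (3.62%) had a disc difference (lgl minus scrib) above their brain difference and 89 (1.23%) one below it. It called 166 of the 363 brain-set genes higher in lgl discs (45.7%), against 40 of 497 (8.05%) outside the set and 49 of the 620 lower ones (7.9%). These genes were chosen by their disc difference, which is part of this test. That difference was larger in the brain set (median 2.17 against 0.93 log2 among probe sets called higher), so the shares are not independent of its size. In brains bnl read 2.34, 2.38 and 2.41 in lgl and 2.81, 3.11 and 2.64 in scrib mutants, all below 4, so its excess in scrib discs had no counterpart there (difference of differences -4.72 ± 0.49, adjusted p = 0.00011). The protease gene ea lay between 3.18 and 4.02 on all mutant brain arrays (3.40 ± 0.20, adjusted p = 2.8e-06). For Hml, brains of lgl mutants (7.19, 8.08 and 5.77) and of scrib mutants (6.72, 7.14 and 6.31) overlapped (3.11 ± 0.82, adjusted p = 0.049), and this call was lost without any one of 11 of the 12 mutant arrays (up to 0.12). The neuropeptide precursor gene Nplp1 was higher in lgl discs (8.08, 9.13 and 9.29 against 3.19, 3.10 and 4.04) and lower in lgl brains (9.32, 10.11 and 10.13 against 10.89, 11.14 and 11.32), the largest such difference among the named genes (6.66 ± 0.51, adjusted p = 1.9e-05). In 2 of the named genes the mutants differed in brains and not by the test in discs. One was vg, at 8.14, 8.19 and 7.82 in lgl and 4.88, 4.96 and 4.79 in scrib brains, and the other NimA, of the phagocytosis receptor family, at 7.09, 7.05 and 7.38 against 2.89, 2.79 and 3.16, with all disc arrays below 4.

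The called genes were spread over the chromosomes. Between 18.9% (X) and 21.3% (2R) of tested genes were called on each large arm, and 26 of 59 (44.1%) on the small chromosome 4. There 25 were higher in lgl discs and Zip102B alone was lower. Outside the brain set 10 of 36 genes of this chromosome were called (9 higher and 1 lower, 27.8%), and the remaining calls, toy and ey among them, were in the set. Up to 50 neighbouring genes on the array on each side were taken, 51 in all around l(2)gl and 100 around scrib. Of those tested outside the brain set, 6 of 34 were called around l(2)gl (17.6%) and 10 of 44 around scrib (22.7%). The share called among all genes outside the brain set was 17.5%.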

How the data were processed

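Total RNA of dissected tissue was labelled as biotin cRNA for Affymetrix arrays, per the labels' protocols. The deposited table holds log2 signals that the authors made with GCRMA, per the submitters' processing notes (version not given in the sources used here). All 16 arrays were used, with groups taken from their labelled tissue and genotype. Of 18952 probe sets, 13647 carry 1 gene symbol in the supplied annotation, 402 several, 4720 none and 183 are controls.

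Probe sets at 4 or more on at least 2 arrays entered limma (3.58.1, R 4.3.3) as one fit of 6 group means (10 residual degrees of freedom). The contrasts were lgl minus scrib in discs, the same in brains, and their difference, each with Benjamini-Hochberg adjustment over 8819 probe sets and a threshold of 0.05. Intervals are at 95%. A gene is represented by its brightest probe set. For folds, values of the dimmer group below 4 were set to 4, which makes the fold a lower bound ("at least"). No fold is given where both means lie below 4.

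Genes were named by rule: the mutated genes, the 12 largest called differences each way outside the brain set, the 6 largest each way within it and between tissues, and up to 4 called members of each list with the smallest adjusted p. The largest differences were taken only from genes whose lgl and scrib disc arrays did not overlap, so that separation was a condition of entry. The rule skips genes whose symbol is a bare CG or CR number. Members, lists and rule were chosen with earlier results of these data known, so no list is independent evidence. Alternatives were other filters, a trended and robust variance, array weights, quantile normalization, a replicate block, 1 probe set per gene, fewer arrays in the fit, other definitions of the brain set, a fold threshold and leaving out each array. No sequences or coordinates are given.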

Additional observations from a re-analysis of the deposited data

Results flagged for a closer look

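For 43 of the named genes, the difference between lgl and scrib mutants was not the same in discs as in brains by the test of the difference itself in limma (Benjamini-Hochberg adjusted p below 0.05). The naming rule took the 6 largest called values each way from this same test. It took others by their disc difference, which is part of the test. The 43 therefore describe the named genes and are no share to set against the 4.85% of all genes called. The values in brackets are the disc difference minus the brain difference in log2. They come from 12 arrays, with the brain arrays separate from the disc arrays. In the brain set the difference, lgl minus scrib, was above 0 in discs and higher there than in brains for Nplp1 (6.66), eEF1alpha2 (6.25), Obp99a (6.21), Gad1 (5.81), TfAP-2 (5.79), CanB (5.53), Gs2 (5.22), alrm (5.06), cpx (5.02), toy (4.93), pros (4.59), dac (4.57), cas (4.19), Syn (3.96), Cyp4g15 (3.67), zyd (3.26) and ey (2.58).

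Outside the brain set the same held for apolpp (4.46), btd (3.79), disco (3.74), CG32444 (6.37), PPO2 (3.51), ea (3.40), Hml (3.11), fat-spondin (2.84), Mmp2 (2.42), Col4a1 (2.22), vkg (2.11), trol (1.53), Reck (1.15) and LanB1 (0.99). LanB1 did not pass the test in discs. The test of the difference between tissues did not pass for NimC1 (adjusted p = 0.13), Pxn (0.19), PPO1 (0.067) and fd96Cb (0.15). Genes whose excess in scrib discs was larger than in scrib brains were tut (-4.73), bnl (-4.72), Cyp6a20 (-4.44), CG6830 (-3.74), Sirup (-2.40), CecB (-2.36), CR44101 (-2.35), Dnaaf3 (-1.35) and Treh (-1.27).

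In NimA (-4.08) and vg (-3.67) the mutants differed in brains, where lgl was higher, and did not pass the test in discs. Cpr66D (-3.36) was lower in lgl discs (-1.99) and higher in lgl brains (1.37, adjusted p = 0.037), a change of direction between tissues. Nplp1 and CG32444 changed direction the other way. Both were higher in lgl discs (5.39 and 4.93) and called lower by limma in lgl brains (-1.27, adjusted p = 0.039, and -1.44, adjusted p = 0.031).

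None of the 43 differences changed sign under the alternatives, and 28 kept their call in all of them. In 4 genes the call was lost only with no filter on low values, disco (adjusted p = 0.051), Cyp6a20 (0.068), Col4a1 (0.074) and cpx (0.075). In the other 11 it was lost on leaving out single arrays among the 12. The call of Hml (adjusted p = 0.049 with all arrays) was lost without any one of 11 arrays (up to 0.12) and that of Mmp2 (0.038) without any one of 11 (up to 0.096). It was lost without any one of 10 for vkg (up to 0.098), CanB (0.071) and Reck (0.069), of 9 for trol (0.1) and LanB1 (0.081), and of 7 for Treh (0.071). The number was 6 for PPO2 (up to 0.073) and Dnaaf3 (0.061), and 3 for fat-spondin (0.054).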

How the results depend on the processing

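Of 223 gene results recomputed (genes chosen by the naming rule or named in the text), 140 kept direction and side of the threshold throughout. Direction changed only in 5 genes that were not called, over the omission of single arrays: baz (-0.179 to 0.0397), mew (-0.029 to 0.123), cher (-0.0712 to 0.0259), so (-0.133 to 0.0634) and upd1 (-0.211 to 0.101). Counts of calls depended on the spread estimate. In discs the 1805 calls over all probe sets became 3529 with array weights by group, 3064 with the mutant arrays alone, 2988 with the arrays compared alone and 933 when a 2-fold difference was also required (then 71.3% higher in lgl, against 58.3%). Without the brain set the 1378 became 2997, 2555, 2546 and 546 in that order, and by genes the 1488 became 2932, 2551, 2498 and 747. In brains the 1014 became 1923, 2166, 1557 and 582. The 426 differences between tissues became 849 with weights, 769 with the mutant arrays alone, which are also the arrays compared, and 273 with no filter. The 427 calls within the brain set moved by less than 1.5 times throughout, and its definition against wild-type disc replicate 2 alone, added after seeing the data, gave 429.

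Leaving out each array in turn gave 1050 to 1440 calls over all probe sets, 702 to 1074 without the brain set, 345 to 395 within it and 848 to 1179 by genes. For brains the range was 604 to 774, and for the difference between tissues 308 to 402. Scrib disc replicate 3 gave the lowest disc counts except within the brain set, where it was lgl disc replicate 2. Hemocyte genes called higher numbered 10 to 12 and basement membrane genes 9 over these omissions. Adding quantile normalization moved the median difference by -0.03, and 8 hemocyte genes and 9 basement membrane genes were then called higher.

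Mutant groups share replicate numbers, but deviations of same-numbered lgl and scrib disc arrays hardly correlated (r = 0.02, 0.06 and 0.01), so the numbers do not pair them. With the replicate block the counts were 1774, 1353 without and 421 within the brain set, 1457 by genes, 994 in brains and 394 between tissues. Values below 4 carry no measured order, so differences of genes near the floor are bounds.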
